A study of Mus musculus with 48 samples.

Results

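The matrix metalloproteinases (MMPs) and their tissue inhibitors (TIMPs) were followed as a gene family across the cells of this study. The family was taken by gene name as Mmp2, Mmp3, Mmp9, Mmp14, Mmp15, Mmp23, Timp1, Timp2, Timp3 and Timp4, which are 10 of the 54752 genes in the deposited matrix, and each name matched 1 row. RNA was sequenced in 48 libraries from male Prox1-eGFP knock-in mice on a C57BL/6 background, in which an IRES-eGFP cassette in the Prox1 locus marks lymphatic cells. Heart and diaphragm lymphatic endothelial cells (LECs) and heart blood endothelial cells (BECs) were sorted as live CD31+ CD45.2- cells that were eGFP+ or eGFP-, and cardiomyocytes were pelleted from the collagenase-digested heart without a sort. Each of these 4 populations comprised 4 control libraries (ctrl), 5 after infusion of the pressor hormone angiotensin II (angII) and 3 after angiotensin II combined with VEGFCc156s, a form of the lymphatic growth factor VEGF-C (angII+VEGFC). The infusions ran from subcutaneous minipumps, all mice of every group carried the reporter allele, and the labels give ages of 8 to 16 months. A mouse has the same number in each population, so the number names a library here.

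MMPs are zinc-dependent proteases that cut the proteins of the extracellular matrix and are made as inactive precursors. TIMPs bind the active enzymes and block them, and Timp2 also helps the membrane-bound Mmp14 to activate the Mmp2 precursor. In the heart, matrix turnover by these proteins is a known part of remodelling under pressure load and angiotensin II, and lymphatic vessels are anchored in the same matrix.

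The values are in TPM, a length-corrected and library-scaled measure of transcript abundance, so levels may be compared between genes. The depth of the libraries is unknown, and the genes that reached 1 TPM numbered 12924 to 25896 in endothelial libraries and 13020 to 19306 in cardiomyocyte libraries, where the angII+VEGFC library of mouse 8 had the most. Markers followed the labels. The median level of Prox1 was 176 TPM in heart LECs and 236 TPM in diaphragm LECs against 2.81 TPM in heart BECs and 3.07 TPM in cardiomyocytes, and that of Myh6 was 1905 TPM in cardiomyocytes against 1.04 to 19.4 TPM in the endothelial populations. The unsorted cardiomyocyte libraries also held fibroblast transcripts, with a median of 2339 TPM for Dcn and 168 TPM for Col1a1, and macrophage transcripts, with 567 TPM for Lyz2. They held blood endothelial and mural transcripts as well, with medians of 922 TPM for Ly6c1 and 628 TPM for Acta2. Heart LECs carried the fibroblast list genes Dcn, Postn and Pdgfra at medians of 1019, 695 and 57.2 TPM, while Col1a1 and Tcf21 were at 7.31 and 4.12 TPM. Among the heart BEC libraries, ctrl mouse 1, angII mouse 3 and angII+VEGFC mouse 2 stood apart, with summed levels of 8 fibroblast markers of 4082, 2624 and 2844 TPM against 504 to 995 TPM in the other 9.

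The secreted proteases Mmp2 and Mmp3 had their highest medians in the cardiomyocyte libraries. Mmp2, the gelatinase that degrades basement membrane collagen (chromosome 8, 92827291 to 92853420 on GRCm38), had a median of 271 TPM in cardiomyocytes (125 to 547 TPM, n = 12) and of 35.3 TPM in heart BECs (24.4 to 219 TPM), 25.8 TPM in heart LECs (8.42 to 59.8 TPM) and 14.4 TPM in diaphragm LECs (5.59 to 55.0 TPM). The ranges of the endothelial populations overlapped, and those of cardiomyocytes and both LEC populations did not. Mmp3, the stromelysin that cuts many matrix proteins and activates other MMPs (chromosome 9, 7445822 to 7455975), had a median of 38.7 TPM in cardiomyocytes (17.9 to 85.3 TPM) and medians of 4.42 TPM in heart BECs, 4.61 TPM in diaphragm LECs and 2.75 TPM in heart LECs. Mmp9, the other gelatinase and a typical product of neutrophils and macrophages (chromosome 2, 164940780 to 164955850), was scarce everywhere. It reached 1 TPM in 7 of 12 cardiomyocyte libraries, in 6 of 12 diaphragm LEC libraries, in 2 of 12 heart LEC libraries and in 0 of 12 heart BEC libraries, and its highest level was 4.85 TPM, in diaphragm LECs. That library, of angII mouse 3, had a leukocyte marker sum of 286 TPM, against 9.66 to 136 TPM in the other diaphragm LEC libraries, and a neutrophil marker sum of 3.52 TPM. The next in Mmp9 were ctrl mouse 9, at 3.61 TPM, and angII mouse 4, at 3.01 TPM. Their leukocyte sums were 136 and 52.3 TPM and their neutrophil sums 129 and 0 TPM. Over the 12, Pearson's r of Mmp9 with the leukocyte sum was 0.469 on log2 values, and the part of leukocyte transcripts was not tested.

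Of the membrane-bound enzymes, Mmp14 had higher medians in both LEC populations than in heart BECs and Mmp15 lower ones. Mmp14, the membrane-type protease that cuts fibrillar collagen at the cell surface (chromosome 14, 54431612 to 54445364), had a median of 235 TPM in diaphragm LECs (139.7 to 396 TPM), 130.4 TPM in heart LECs (84.8 to 197 TPM), 48.1 TPM in cardiomyocytes (27.8 to 96.8 TPM) and 34.2 TPM in heart BECs (24.9 to 85.0 TPM). Mmp15, a related membrane-type protease (chromosome 8, 95352268 to 95375080), ran the other way, with a median of 29.6 TPM in heart BECs (11.3 to 53.0 TPM), 7.45 TPM in cardiomyocytes, 2.56 TPM in heart LECs and 1.26 TPM in diaphragm LECs. Mmp23, an MMP held in the membrane by its amino terminus (chromosome 4, 155650655 to 155653384), had a median of 64.9 TPM in cardiomyocytes (36.8 to 115 TPM) and of 2.62 to 6.14 TPM in the endothelial populations, and was at 0 in 2 heart LEC libraries.

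In summed transcripts of the members, the 4 TIMPs exceeded the 6 MMPs in every library. Timp3, the inhibitor that stays bound to the matrix and also blocks ADAM proteases (chromosome 10, 86300372 to 86349506), was the most abundant member in all 3 endothelial populations, with medians of 1744 TPM in diaphragm LECs (1254 to 2266 TPM), 1299 TPM in heart LECs (997 to 1631 TPM) and 669 TPM in heart BECs (546 to 934 TPM), and had 261 TPM in cardiomyocytes. Timp2 (chromosome 11, 118301069 to 118355740) followed in both LEC populations, with 1099.7 TPM in the diaphragm and 811 TPM in the heart, and had 223 TPM in cardiomyocytes and 99.9 TPM in heart BECs. Timp4, the inhibitor known for its high level in the heart (chromosome 6, 115241892 to 115252205), had its highest median, 144 TPM, in heart BECs (60.5 to 485 TPM) and 22.0, 16.7 and 9.15 TPM in cardiomyocytes, heart LECs and diaphragm LECs. Timp1, the inhibitor induced by inflammation and fibrosis (chromosome X, 20870166 to 20874735), had 100.4 TPM in cardiomyocytes (20.2 to 485 TPM) and 15.2 to 18.5 TPM in the endothelial populations. The 4 TIMPs added together were 12.4 times the 6 MMPs in the median heart LEC library (8.60 to 20.3 times), 10.5 times in diaphragm LECs, 7.63 times in heart BECs and 1.55 times in cardiomyocytes (1.08 to 2.30 times). Timp1, Timp3 and Timp4 lie inside Syn1, Syn3 and Syn2 on the opposite strand, and the library kit keeps no strand. Of the exon bases of Timp3 and Timp4, 1733 of 8144 and 90 of 5894 are shared with an exon of that partner, and 0 of Timp1.

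**Figure D1:**
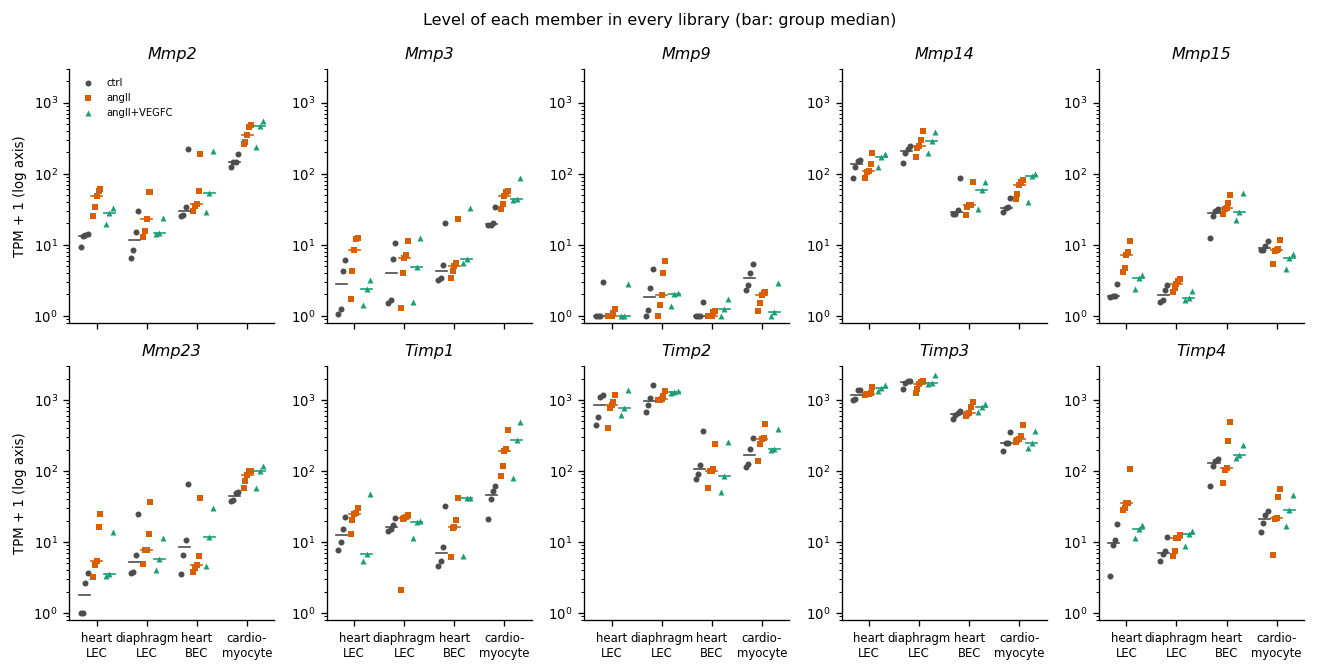
TPM + 1 on a log axis for each of the 10 members in each of the 48 libraries, by population on the horizontal axis and by treatment in symbols (ctrl circles, angII squares, angII+VEGFC triangles), with a bar at each group's median. Timp2, Timp3 and Mmp14 stand high in both LEC populations, Mmp15 and Timp4 in heart BECs, and Mmp2, Mmp3, Mmp23 and Timp1 in cardiomyocytes.

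Promoters of members that stood higher together in the cardiomyocyte libraries after infusion are shown for Mmp3, Mmp14 and Timp1, as the 250 bases before the transcription start. Mmp23, whose promoter held none of the motifs searched, and Mmp2, which had no entry, also stood higher there and are not shown. The sequences are from RefSeq on GRCm38.p6, plus strand, and 8 of the 10 members had an entry. Capitals mark matches to 3 short motifs searched on both strands, the AP-1 motif TGANTCA, the GC box GGGCGG and the TATA box TATAAA.
Mmp3 (chr9:7445572-7445821): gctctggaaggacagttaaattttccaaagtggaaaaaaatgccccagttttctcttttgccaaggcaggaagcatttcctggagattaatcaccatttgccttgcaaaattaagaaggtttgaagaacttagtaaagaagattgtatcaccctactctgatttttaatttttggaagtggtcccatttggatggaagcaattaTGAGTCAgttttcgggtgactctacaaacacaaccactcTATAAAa
Mmp14 (chr14:54431348-54431597): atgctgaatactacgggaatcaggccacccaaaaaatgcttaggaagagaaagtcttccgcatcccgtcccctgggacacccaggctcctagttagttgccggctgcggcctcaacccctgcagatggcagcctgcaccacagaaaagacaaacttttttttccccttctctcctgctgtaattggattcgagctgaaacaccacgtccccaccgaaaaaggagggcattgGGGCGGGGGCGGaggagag
Timp1 (chrX:20869916-20870165): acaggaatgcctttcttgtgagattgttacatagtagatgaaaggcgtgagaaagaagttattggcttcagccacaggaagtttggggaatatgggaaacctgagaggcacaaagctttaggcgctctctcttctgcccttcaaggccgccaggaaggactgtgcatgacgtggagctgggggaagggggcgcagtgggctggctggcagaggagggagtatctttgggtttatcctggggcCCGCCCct
Mmp3 held an AP-1 motif that begins 46 bases before the start and a match to TATAAA that begins 7 bases before it. Mmp14 held 2 GC boxes that begin 19 and 13 bases before the start, and Timp1 held 1, on the reverse strand, 8 bases before it. Over 32851 promoters of the same length, 6.75% held an AP-1 motif, 32.7% a GC box and 12.4% a TATA box. Of the other members with an entry, Mmp15, Timp2 and Timp3 held 1 GC box each, and neither Mmp23 nor Timp4 held a match. The matches are of letters only. Whether they work as promoter elements at these positions, or go with the treatment differences, was not tested.

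The LECs and BECs of the heart were compared to ask how the family differs between the vessels of one organ, with each population averaged over the 3 treatments. Heart LECs had more Timp2, Mmp14 and Timp3 and less Mmp15, Timp4 and Mmp2 than heart BECs. In log2(TPM + 1), the difference was 2.80 for Timp2 (SE 0.26, limma adjusted p = 1.99e-10), 1.67 for Mmp14 (SE 0.21, adjusted p = 9e-08) and 0.89 for Timp3 (SE 0.08, adjusted p = 6.2e-11). It was -3.10 for Mmp15 (SE 0.20, adjusted p = 4.9e-14), -3.08 for Timp4 (SE 0.26, adjusted p = 3.31e-11) and -1.20 for Mmp2 (SE 0.36, adjusted p = 0.0168). Timp2, Mmp14 and Timp3 were higher in the LECs of 12 of 12 mice, and Mmp15 and Timp4 were lower in 12 of 12. The other members did not pass the test, with -1.22 for Mmp23 (adjusted p = 0.0939), -1.17 for Mmp3 (adjusted p = 0.094), 0.12 for Mmp9 and -0.01 for Timp1. Thus 6 of 10 members passed an adjusted p under 0.05, against 17.6% of the 32754 genes tested. Without the 3 heart BEC libraries with the highest fibroblast marker sums, which carried 191 to 219 TPM of Mmp2 against 24.4 to 55.8 TPM in the other 9, the difference for Mmp2 was -0.54 (adjusted p = 0.212) and 5 members passed, and without that of angII+VEGFC mouse 2 alone it was -0.87 (adjusted p = 0.0837). In bulk libraries fewer cells of a type and less RNA per cell cannot be told apart.

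The LECs of the 2 organs were compared in the same fit. Heart LECs had less Mmp14 (log2 difference -0.85, SE 0.21, limma adjusted p = 0.00969) and less Timp3 (-0.40, SE 0.08, adjusted p = 0.00117) than diaphragm LECs, in 10 and 11 of 11 mice with both libraries, and more Mmp15 (0.68, SE 0.20, adjusted p = 0.0474), in 10 of 11 mice. The call of Mmp15 was lost with no filter, after quantile normalization and in 15 of the 24 fits with 1 library left out, where its adjusted p was 0.0285 to 0.0974. These were 3 of 10 members, against 4.56% of all genes. Timp4 was 0.87 higher in the heart (SE 0.27, adjusted p = 0.0524), and with the mouse as a random block it passed, at an adjusted p of 0.030. The remaining differences were -0.86 for Mmp23, -0.65 for Mmp9, -0.47 for Timp2, 0.44 for Mmp2, -0.43 for Mmp3 and -0.06 for Timp1, with adjusted p-values of 0.185 or more. Heart LEC libraries had a summed level of 5 blood endothelial markers of 937 to 3891 TPM against 499 to 1048 TPM in diaphragm LECs, and Mmp15 and Timp4 are members with high levels in heart BECs; the part of these transcripts in the difference was not tested.

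The cardiomyocyte libraries differed from heart BECs in 9 of 10 members, in a comparison in which 74.8% of all genes passed and the median gene was 0.61 lower in cardiomyocytes. Timp1 was higher by 2.93 (SE 0.38), Mmp23 by 2.78 (SE 0.41), Mmp3 by 2.39 (SE 0.34), Mmp2 by 2.31 (SE 0.36), Timp2 by 0.98 (SE 0.29) and Mmp9 by 0.84 (SE 0.19) in log2(TPM + 1). Timp4 was lower, at -2.62 (SE 0.31), as were Mmp15 at -1.95 (SE 0.17) and Timp3 at -1.36 (SE 0.12), each in 12 of 12 mice. Mmp14 did not pass, at 0.35 (SE 0.22, limma adjusted p = 0.146). Without the 3 heart BEC libraries named above Mmp14 passed as well, at 0.66 (adjusted p = 0.0019), and so it did after quantile normalization, which moved the median gene to -0.14. The cardiomyocyte libraries were sequenced in a set of their own, so population and sequencing set cannot be told apart. The summed fibroblast markers were 2504 to 7824 TPM in cardiomyocytes and 504 to 4082 TPM in heart BECs. Of these markers 8 of 8 passed as higher, and none was at 0 in a cardiomyocyte library. Summed mural markers were 950 to 1963 TPM in cardiomyocytes against 148 to 420 TPM in heart BECs. Summed leukocyte markers were 510 to 1682 TPM against 23.4 to 78.4 TPM. The part of these transcripts in the differences was not tested.

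**Figure D2:**
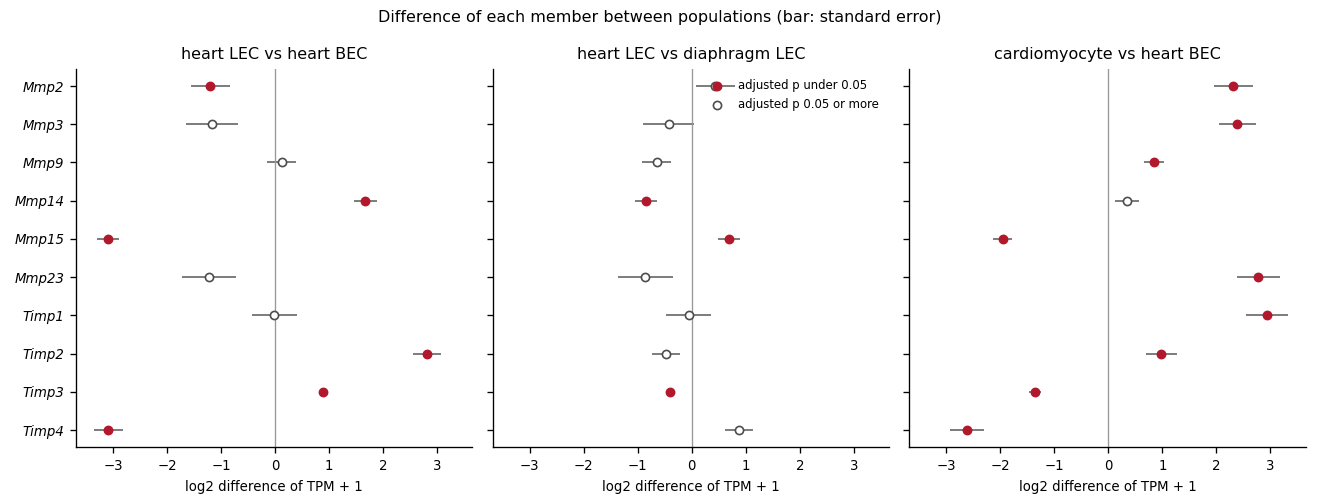
Fitted log2 difference of TPM + 1 for each member in the 3 comparisons of populations, with bars for the standard error and filled points where the adjusted p was under 0.05. Timp2 and Mmp15 lie at opposite ends of the comparison of heart LECs with heart BECs, at 2.80 and -3.10. In the comparison of cardiomyocytes with heart BECs 9 of 10 points are filled, where 74.8% of all genes passed.

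Angiotensin II was compared with ctrl in heart LECs to ask whether the infusion changed the family in cardiac lymphatics. No member passed an adjusted p under 0.05, which 0.0261% of 26803 genes did, but 4 of the 9 members tested had an unadjusted p under 0.05, all with higher levels, against 10.9% of all genes. Mmp9 was below the filter and was not tested. Mmp2 was at 8.42, 12.2, 12.7 and 13.3 TPM in the ctrl libraries, at 24.5, 33.0, 47.3, 55.4 and 59.8 TPM in the angII libraries and at 18.6, 27.0 and 31.8 TPM in the angII+VEGFC libraries. Every infused library lay above every ctrl library, and the difference of angII from ctrl was 1.79 in log2(TPM + 1) (SE 0.32, limma adjusted p = 0.0884), higher than 98.6% of all genes. It was 1.99 within sequencing batch 1 and 1.52 within batch 2.

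Timp4 was at 2.32, 8.08, 9.66 and 16.9 TPM in ctrl, at 27.0, 29.4, 34.4, 34.7 and 106 TPM in angII and at 10.5, 14.0 and 16.6 TPM in angII+VEGFC heart LECs. The angII libraries stood apart from both other groups, with a log2 difference from ctrl of 2.35 (SE 0.46, limma adjusted p = 0.107). Mmp15 was at 0.838, 0.870, 0.900 and 1.80 TPM in ctrl, at 3.17, 3.69, 6.17, 6.84 and 10.2 TPM in angII and at 1.41, 2.37 and 2.75 TPM in angII+VEGFC, again with the angII libraries above the others (1.68, SE 0.52, adjusted p = 0.283). Mmp23 was at 0, 0, 1.63 and 2.65 TPM in ctrl and at 2.23, 3.79, 4.42, 15.2 and 23.8 TPM in angII, so that the groups overlapped (2.38, SE 0.68, adjusted p = 0.249). Within sequencing batches 1 and 2 the differences were 2.13 and 2.48 for Timp4, 1.43 and 1.96 for Mmp15 and 2.86 and 1.60 for Mmp23. Counted over the members, 3 of 9 had all angII libraries above all ctrl libraries, against 2.13% of all genes.

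Mmp15 and Timp4 belong to the members with high levels in heart BECs, and the summed blood endothelial markers moved with them in heart LECs. Of these markers Ly6c1 varied most in heart LECs, from 115 to 2230 TPM. Aqp1 ran from 255 to 905 TPM, Nos3 from 92.7 to 280 TPM, Flt1 from 71.5 to 191 TPM and Cd300lg from 167 to 344 TPM. The sum was 937 to 1507 TPM in ctrl, 1514 to 3891 TPM in angII and 1134 to 1199 TPM in angII+VEGFC libraries, 4 of the 5 markers had a higher fitted level in angII than in ctrl, 2 of them at an unadjusted p under 0.05, 0 passed the adjusted threshold, and the angII libraries of mice 14 and 15 had the highest sums. All 7 mural and all 6 cardiomyocyte markers were also higher, with 2 of each at an unadjusted p under 0.05, and of 8 fibroblast markers 5 were higher, of which 1 passed, and 3 were lower at an unadjusted p under 0.05. The fibroblast marker sum was 1526 to 2166 TPM in ctrl (median 2099 TPM) and 1169 to 2697 TPM in angII (median 1273 TPM). The part of these transcripts was not tested. Without those 2 libraries the difference of angII from ctrl was 1.32 for Mmp15 (adjusted p = 0.587), 1.91 for Timp4, 2.93 for Mmp23 (adjusted p = 0.367 for both) and 1.95 for Mmp2 (adjusted p = 0.206). Without the ctrl library of mouse 1, Timp4 passed (2.78, adjusted p = 0.0328). The median of all genes was 0.23 higher in angII, more genes reached 1 TPM there (19957 to 25896 against 16131 to 24086 in ctrl), and after quantile normalization the median was -0.01 and Mmp2 was at 1.83.

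VEGFCc156s added to angiotensin II was tested in heart LECs against angiotensin II alone. No member passed, as for 0% of all genes, and 1 of 9 had an unadjusted p under 0.05, against 10.8% of all genes. That member was Timp4, at -1.80 in log2(TPM + 1) (SE 0.55, limma adjusted p = 0.413), and at -1.30 (adjusted p = 0.608) without the angII libraries of mice 14 and 15. Timp4 and Mmp15 were the 2 of 9 members with all angII+VEGFC libraries below all angII libraries, against 7.33% of all genes. Against ctrl, angII+VEGFC gave 0 members and 0% of all genes at an adjusted p under 0.05 and 1 of 9 members at an unadjusted p under 0.05, against 4.94% of all genes. That member was Mmp2, at 1.05 (SE 0.37, adjusted p = 0.915). Mmp2 was also the 1 of 9 members with all angII+VEGFC libraries above all ctrl libraries, against 1.82% of all genes. For the abundant members the groups overlapped. Timp3 was at 997 to 1397 TPM in ctrl, 1176 to 1546 TPM in angII and 1346 to 1631 TPM in angII+VEGFC, and the fitted difference of angII from ctrl was 0.14 for Timp3, 0.18 for Timp2 and -0.10 for Mmp14.

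**Figure D3:**
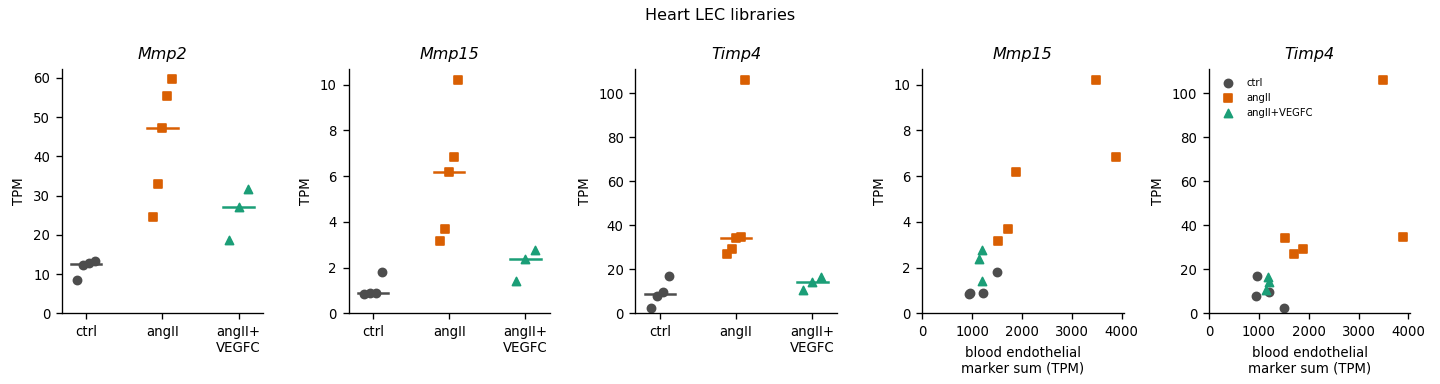
The first 3 panels give the TPM of Mmp2, Mmp15 and Timp4 in the heart LEC libraries by treatment, with a bar at the group median, and the last 2 the TPM of Mmp15 and Timp4 against the summed TPM of 5 blood endothelial markers in the same 12 libraries. The angII libraries lie above the ctrl libraries for all 3 genes, and the libraries with sums of 3488 and 3891 TPM carry the highest levels of Mmp15.

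Diaphragm LECs were used to ask about lymphatics outside the heart, and heart BECs about the other vessels of the heart. In neither population did a member pass the limma test or reach an unadjusted p under 0.05 in any of the 3 contrasts, as 0% of all genes passed the adjusted threshold. At the unadjusted threshold the counts were 0 of 10 members in diaphragm LECs against 15.3% of all genes for angII against ctrl, 8.78% for angII+VEGFC against angII and 1.32% for angII+VEGFC against ctrl. In heart BECs they were 0 of 9 members against 5.40%, 2.59% and 5.51% of all genes in the same order. Mmp2 in diaphragm LECs was at 5.59, 7.45, 14.0 and 29.2 TPM in ctrl, at 12.0, 14.8, 22.05, 53.6 and 55.0 TPM in angII and at 13.3, 13.5 and 22.7 TPM in angII+VEGFC, and the groups overlapped. Mmp14, the most abundant protease there, was at 139.7, 195, 222 and 243 TPM in ctrl, at 169.9, 227, 245, 298 and 396 TPM in angII and at 194, 286 and 388 TPM in angII+VEGFC. In heart BECs the spread of Mmp2 within a group was wider than the difference between groups, with 24.4 to 219 TPM in ctrl, 28.6 to 191 TPM in angII and 27.8 to 207 TPM in angII+VEGFC. Mmp15 in heart BECs was at 11.3, 24.5, 28.7 and 30.8 TPM in ctrl, at 25.7, 30.4, 31.9, 37.3 and 49.2 TPM in angII and at 21.6, 28.1 and 53.0 TPM in angII+VEGFC, with overlap of all groups. Timp4 in heart BECs was at 60.5 to 148 TPM in ctrl, 67.5 to 485 TPM in angII and 149.8 to 232 TPM in angII+VEGFC. In the last group each library lay above each ctrl library, by a narrow margin (149.8 against 148 TPM). This held for 1 of 9 members, against 2.55% of all genes.

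In cardiomyocyte libraries, Mmp2 rose with the combined treatment, a call that was lost under several alternatives, and Timp1, Mmp3, Mmp23 and Mmp14 stood higher in both infused groups without passing the adjusted threshold in these fits. Mmp2 was at 125, 144, 145 and 186 TPM in ctrl, at 264, 277, 349, 452 and 487 TPM in angII and at 239, 464 and 547 TPM in angII+VEGFC. No infused library overlapped with ctrl, and the log2 difference was 1.26 for angII (SE 0.26, limma adjusted p = 0.0812) and 1.39 for angII+VEGFC (SE 0.30, adjusted p = 0.04999). Timp1 was at 20.2, 39.2, 51.2 and 60.5 TPM in ctrl, at 85.2, 116, 193, 202 and 379 TPM in angII and at 79.9, 273 and 485 TPM in angII+VEGFC. It had the largest differences of the family, 2.16 for angII (SE 0.49, adjusted p = 0.108) and 2.33 for angII+VEGFC (SE 0.56, adjusted p = 0.0824), and again no overlap with ctrl.

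Mmp23 was at 36.8, 37.8, 48.7 and 49.9 TPM in ctrl, at 57.3, 72.4, 88.1, 98.3 and 101 TPM in angII and at 56.1, 99.5 and 115 TPM in angII+VEGFC cardiomyocytes. Both infused groups lay above ctrl, with log2 differences of 0.92 (SE 0.23, limma adjusted p = 0.148) and 0.98 (SE 0.27, adjusted p = 0.125). Mmp3, whose AP-1 and TATA motifs are shown above, was at 17.85, 17.9, 18.9 and 32.7 TPM in ctrl, at 31.2, 36.03, 47.7, 55.2 and 56.5 TPM in angII and at 41.3, 43.4 and 85.3 TPM in angII+VEGFC. Its difference was 0.98 (SE 0.26, adjusted p = 0.159) and 1.37 (SE 0.30, adjusted p = 0.0518), and 1 ctrl library, that of mouse 11, overlapped with angII. Mmp14 was at 27.8, 32.0, 32.7 and 45.3 TPM in ctrl, at 42.6, 51.0, 68.5, 75.5 and 80.5 TPM in angII and at 38.8, 91.4 and 96.8 TPM in angII+VEGFC, with differences of 0.84 (SE 0.28, adjusted p = 0.287) and 1.03 (SE 0.32, adjusted p = 0.166) and some overlap. Timp2 had a difference of 0.71 for angII (SE 0.32, adjusted p = 0.492), with 113 to 292 TPM in ctrl and 139.6 to 465 TPM in angII.

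Mmp9 and Mmp15 had negative fitted differences in both infused groups of cardiomyocytes and did not pass. Mmp9 was at 1.34, 1.74, 2.97 and 4.33 TPM in ctrl, at 0.167, 0.494, 0.941, 1.07 and 1.15 TPM in angII and at 0, 0.148 and 1.93 TPM in angII+VEGFC. The angII libraries lay below ctrl, as they did for 0.574% of all genes. The log2 difference was -0.99 (SE 0.37, limma adjusted p = 0.375) for angII and -1.19 (SE 0.42, adjusted p = 0.233) for angII+VEGFC. The summed neutrophil markers were 3.31 to 24.3 TPM in ctrl and 5.22 to 12.9 TPM in angII, with 0 of the 3 tested higher and 0 at an unadjusted p under 0.05, and their part was not tested. Mmp15 was at 7.48, 7.51, 8.63 and 10.25 TPM in ctrl and at 3.57, 5.48 and 6.37 TPM in angII+VEGFC. The angII+VEGFC libraries lay below ctrl, as they did for 4.78% of all genes. The log2 difference was -0.62 (SE 0.27, limma adjusted p = 0.348), and -0.44 (adjusted p = 0.399) without the library of mouse 8. In angII, Mmp15 was at 4.38 to 10.8 TPM and overlapped with ctrl (-0.21, SE 0.24, adjusted p = 0.838). Timp3 and Timp4 had unadjusted p-values above 0.05 in each contrast.

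For angII against ctrl, 0 of 10 members passed in cardiomyocytes, against 0.0892% of 15691 genes, and 7 of 10 had an unadjusted p under 0.05, 6 higher and 1 lower, against 9.85% of all genes. All angII libraries lay above all ctrl libraries in 3 of 10 members, against 5.10% of all genes, and below them in 1 of 10, against 0.574%. For angII+VEGFC against ctrl, 1 of 10 passed, against 0.663% of all genes, and 7 of 10 had an unadjusted p under 0.05, 5 higher and 2 lower, against 12.9%. All angII+VEGFC libraries lay above all ctrl libraries in 4 of 10 members, against 9.19% of all genes, and below them in 1 of 10, against 4.78%. Both contrasts use the same 4 ctrl libraries. Adding VEGFCc156s to angiotensin II moved 0 of 10 members at either threshold, against 0% of all genes at the adjusted and 2.41% at the unadjusted threshold. The angII+VEGFC library of mouse 8, with 19306 genes that reached 1 TPM against 13020 to 15816 in the other 11, was the lowest of its group for Mmp2, Timp1, Mmp14 and Mmp23. Without it 6 members passed for angII+VEGFC against ctrl, with log2 differences of 3.09 for Timp1 (adjusted p = 0.00188), 1.74 for Mmp2 (adjusted p = 0.00211), 1.47 for Mmp3, 1.43 for Mmp14, 1.28 for Mmp23 and -1.65 for Mmp9. Without any 1 of the other 6 libraries compared, 0 passed.

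The fibroblast markers moved with these members. Their summed level was 2504 to 3715 TPM in ctrl, 4453 to 6233 TPM in angII and 3563 to 7824 TPM in angII+VEGFC cardiomyocyte libraries, 8 of 8 markers had a higher fitted level in each infused group, 5 of them at an unadjusted p under 0.05, and 0 passed the adjusted threshold. The 7 leukocyte markers were also all higher, with 6 at an unadjusted p under 0.05 for angII. Their part in the differences was not tested. Relative to the fibroblast marker sum, Mmp14 was at 0.931% to 1.28% in ctrl, 0.917% to 1.31% in angII and 1.09% to 1.27% in angII+VEGFC, and Mmp23 at 1.27% to 1.66%, 1.29% to 1.64% and 1.38% to 1.58%. These groups overlapped throughout. Mmp2 was at 4.83% to 5.00% of the sum in ctrl, 4.23% to 7.95% in angII and 5.92% to 7.61% in angII+VEGFC, and Timp1 at 0.808% to 2.02%, 1.85% to 8.17% and 2.24% to 6.20%. The markers in the sum varied unequally. Postn ran from 91.7 to 1322 TPM and Col3a1 from 255 to 1778 TPM, against 1718 to 3182 TPM for Dcn and 37.6 to 62.8 TPM for Tcf21. The percents therefore cannot tell more fibroblasts from more of these transcripts per fibroblast.

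**Figure D4:**
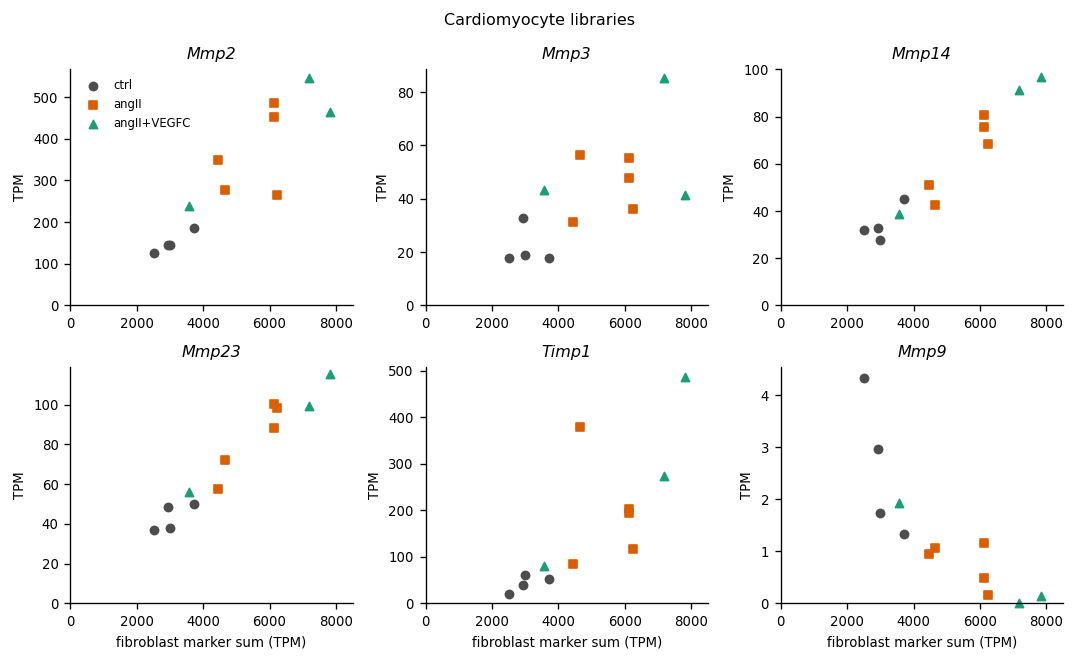
TPM of 6 members against the summed TPM of 8 fibroblast markers in the 12 cardiomyocyte libraries, with symbols for treatment. Mmp14 and Mmp23 lie at about the same percent of the sum in each group, and the 4 ctrl libraries lie at sums of 2504 to 3715 TPM. Mmp9 in the ctrl libraries lies above the angII libraries and overlaps with angII+VEGFC.

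Whether a treatment difference itself differed between the endothelial populations was tested as an interaction. No member passed in any of the 6 interactions, as for 0% of all genes in 5 of them and 0.00611% in the sixth, angII against ctrl in heart LECs less diaphragm LECs. At an unadjusted p under 0.05 there were 3 of 10 members for angII against ctrl in heart LECs less heart BECs, against 7.19% of all genes, with 2.82 for Mmp23, 1.72 for Timp4 and 1.08 for Mmp15 in log2(TPM + 1). There were 2 of 10 in heart LECs less diaphragm LECs, against 9.70%, with 1.89 for Timp4 and 1.22 for Mmp15, and 0 of 10 in diaphragm LECs less heart BECs, against 11.0%. For angII+VEGFC against angII, Timp4 was the 1 member of 10 in heart LECs less heart BECs (-1.69, against 6.43% of all genes) and in heart LECs less diaphragm LECs (-1.82, against 4.88%), and there were 0 of 10 in diaphragm LECs less heart BECs, against 7.00%. The limma adjusted p-values of these members were 0.331 or more, so the larger treatment differences of Mmp15, Mmp23 and Timp4 in heart LECs were not shown to be particular to that population. The treatment difference of Mmp2 in heart LECs exceeded that in heart BECs by 1.60 (SE 0.82) and that in diaphragm LECs by 0.70 (SE 0.82).

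**Figure D5:**
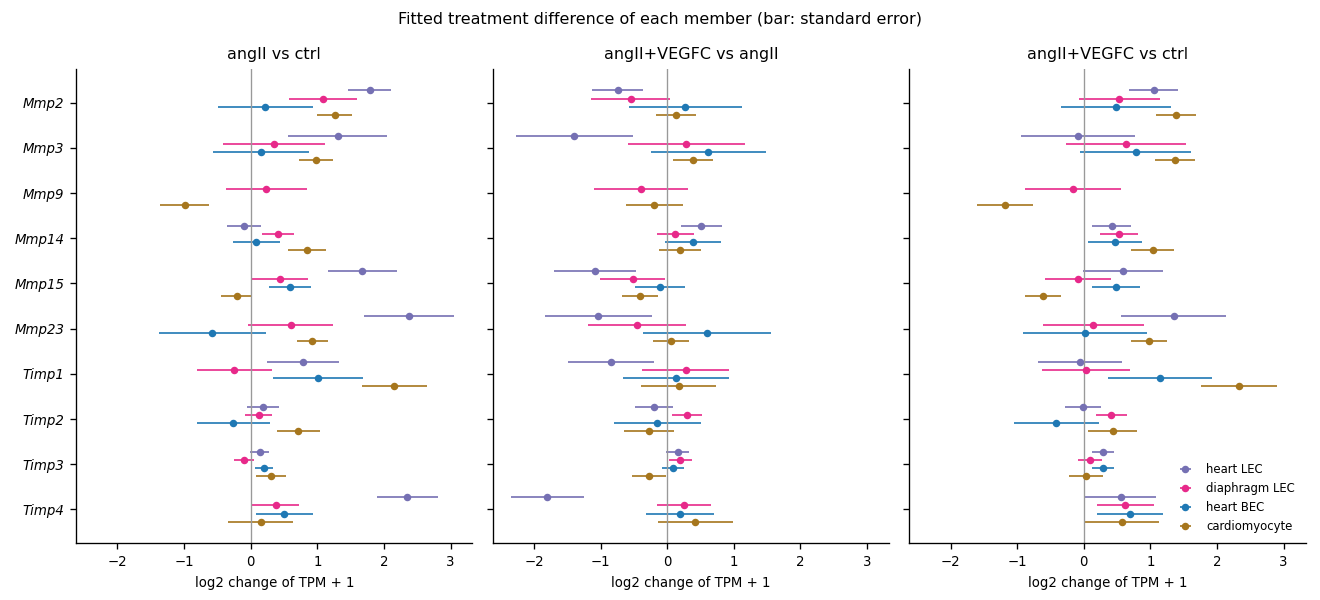
Fitted log2 difference of TPM + 1 for each member in the 3 treatment contrasts, with colours for the 4 populations and bars for the standard error. Mmp2, Mmp15, Mmp23 and Timp4 in heart LECs and Timp1 in cardiomyocytes lie farthest to the right for angII against ctrl, and Mmp9 has no point in heart LECs and heart BECs, where it was not tested.

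The other genes of pericellular proteolysis were read from a list of 59 that held 17 other MMPs, 19 ADAMTS proteases, 9 ADAM proteases and 14 activators, receptors and inhibitors. Of the 41 to 45 tested in a population, 0 passed in any of the 12 treatment contrasts, and 0 to 10 had an unadjusted limma p under 0.05, the most for angII against ctrl in cardiomyocytes, with 9 higher and 1 lower of 42, against 9.85% of all genes. Between heart LECs and heart BECs 16 of 48 passed, 6 higher and 10 lower in LECs, against 17.6% of all genes. The higher genes included Serpine2, an inhibitor of plasminogen activators (log2 difference 2.92), the proprotein convertase gene Pcsk6 (2.57), the broad protease inhibitor gene A2m (2.48) and Plau, the urokinase gene (1.31). The lower genes included Adam15 (-2.11), Adamts9 (-1.66), Adamts7 (-1.56), Adamts8 (-1.50), the clearance receptor gene Lrp1 (-1.36) and Adamts4 (-1.17). Between heart and diaphragm LECs 9 of 48 passed, 5 higher and 4 lower in the heart, against 4.56% of all genes, led by A2m (4.43), Pcsk5 (2.15) and Mmp28 (1.93) among the higher and by Adamts4 (-1.23) and Plau (-1.21) among the lower. In cardiomyocytes 11 of 46 were higher and 24 lower than in heart BECs, a share near the 74.8% of all genes that passed there and so no result about this list, with 1.99 for Adamts2 and 1.92 for Serpine2 against -2.97 for Adamts9 and -2.54 for Plaur, the urokinase receptor gene.

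Over all 48 libraries the genes with the level pattern most like each member, by Pearson's r of log2(TPM + 1), were as follows. For Mmp2 they were Col6a1, Loxl1 and Gpm6b (r of 0.952 to 0.939), for Mmp14 Fndc1, Aebp1 and Arsb (0.942 to 0.928), for Mmp23 Ogn, Tmem119 and Col1a1 (0.923 to 0.911), for Mmp3 Dnm1, Fbln1 and Crispld2 (0.873 to 0.867) and for Timp1 Srpx2, Ccn2 and Clec11a (0.885 to 0.864). Timp2 was most like Tgfbi (0.958), with Pcsk6 also among its nearest (0.953), and Timp3 most like Pros1, Ndrg1 and Pxn (0.985 to 0.978). Mmp15 was most like Cxcl12, Kitl and Zfp366 (0.954 to 0.947) and Timp4 most like Crybg1, Efr3b and Esam (0.907 to 0.900). Mmp9, at 1 TPM or more in 15 libraries, had no gene above 0.630, which was Scn4b. The libraries span 4 populations, and libraries of 1 mouse share that mouse.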

How the data were processed

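RNA from 3 sorted endothelial populations and from pelleted cardiomyocytes was converted with the Smart-Seq ultra low input kit and Nextera XT, which keep no strand. The authors sequenced the endothelial libraries in 2 batches and the cardiomyocyte libraries in 1, aligned the reads to GRCm38 with STAR 2.5.3a, quantified genes with Salmon 0.12.0 and deposited 1 matrix of 54752 genes in TPM. TPM keeps no read counts, so no depth, counting interval or detection floor could be given.

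Groups, mouse numbers, ages and batches came from the labels, whose ages in months differ from the weeks given in the methods. Genes that reached 1 TPM in 3 libraries of a fit were tested on log2(TPM + 1) with limma 3.58.1 in R 4.3.3, trend on, with Benjamini-Hochberg adjustment over all genes tested and a threshold of 0.05. Treatments were fitted within each population on 12 libraries, with age and, for endothelial cells, batch as covariates. Populations and interactions were fitted on cell means over 36 endothelial libraries, or 24 libraries for cardiomyocytes with heart BECs. A call means an adjusted p under 0.05. In the treatment fits the p-values measure the spread between mice of a group. The population and interaction fits took libraries of the same mouse as independent, except where the mouse was a block. The fits were tested on simulated data, and no 2 libraries held identical values.

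All 10 members are named. Treatment differences are printed with statistics where the unadjusted p was under 0.05, and population differences for every member. Of the other listed genes at most 10 called per comparison are named, those with the largest differences, and for each member the 3 most alike genes among those that reached 1 TPM in 12 libraries. For Timp2, 1 of these is not reported here. The members, lists and tests were chosen with earlier results of these data known. Marker lists held 8 fibroblast, 7 mural, 7 leukocyte, 5 neutrophil, 6 cardiomyocyte and 5 blood endothelial genes. The labels give a mouse the same number in each population, so the numbers pair libraries across populations but not treatments. Deviations from group means correlated at a mean r of 0.084 over 34 pairs of the same mouse and -0.024 over 116 pairs of different mice. Alternatives were a pseudocount of 0.1, no filter, no covariates, the count of detected genes (at least 1 TPM) as covariate, quantile normalization, only the groups compared, ctrl libraries only, the mouse as a block (limma's duplicateCorrelation) and each library left out. Leaving out the libraries with high blood endothelial or fibroblast marker sums was chosen after seeing the data. Gene positions are from GENCODE M21 and promoters from RefSeq, read with Python 3.11.15.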

Additional observations from a re-analysis of the deposited data

Results flagged for a closer look

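Of 80 groups of 4 or 5 libraries, 20 held a library far from the rest by Dixon's test at the 95% level. The test's rate of about 1 of 20 groups by chance holds for normally distributed values. It was run on TPM without a log, so the count cannot be set against that rate. The groups of 3 were not tested, and the 10 genes share the libraries, so the 80 are not independent.

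In heart BECs, 11 of the 20 came from 2 libraries with high fibroblast marker sums and 1 from another library. The ctrl library of mouse 1 was the highest of its group for Mmp2 (219 TPM, next 33.2 TPM), Mmp3 (19.0 TPM, next 4.27 TPM), Mmp14 (85.0 TPM, next 29.6 TPM), Mmp23 (64.8 TPM, next 9.76 TPM), Timp1 (31.4 TPM, next 7.53 TPM) and Timp2 (370.5 TPM, next 121 TPM). The angII library of mouse 3 was the highest for Mmp2 (191 TPM, next 55.8 TPM), Mmp3 (22.2 TPM, next 4.56 TPM), Mmp14 (75.9 TPM, next 35.8 TPM), Mmp23 (41.2 TPM, next 5.31 TPM) and Timp2 (239 TPM, next 105 TPM). The ctrl library of mouse 9 had the only Mmp9 above 0 in its group, at 0.566 TPM.

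In heart LECs, the ctrl library of mouse 5 had the only Mmp9 above 0 in its group, at 1.97 TPM, and that of mouse 9 the highest Mmp15, at 1.80 TPM against 0.900 TPM. The angII library of mouse 12 had the highest Timp3, at 1546 TPM against 1251 TPM, and that of mouse 15 the highest Timp4, at 106 TPM against 34.7 TPM. In diaphragm LECs, Mmp23 was highest in ctrl mouse 9, at 24.1 TPM against 5.58 TPM, and in angII mouse 18, at 35.2 TPM against 12.0 TPM, and Timp1 was lowest in angII mouse 4, at 1.14 TPM against 19.8 TPM. In cardiomyocytes, Mmp3 was highest in ctrl mouse 11, at 32.7 TPM against 18.9 TPM.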

How the results depend on the processing

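The counts of members called were recomputed under each alternative, and 9 of the 12 treatment contrasts and all 6 interactions had 0 members called under each. In cardiomyocytes, angII against ctrl gave 4 members with the count of detected genes as covariate and 3 with only the 2 groups compared, against 0. There angII+VEGFC against ctrl, with 1 member, gave 6 with the count of detected genes as covariate, 2 after quantile normalization, 0 with a pseudocount of 0.1, 0 with no filter and 0 with only the 2 groups compared, and 0 to 6 with 1 library left out. Heart LECs, angII against ctrl, gave 1 member (Mmp2, adjusted p = 0.040) with no covariates and 0 to 1 with 1 library left out, against 0. Heart against diaphragm LECs gave 1 in ctrl libraries only, against 3. The causes were not tested. A fit with 1 surrogate variable was planned and not run.

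Counts over all genes moved more. For cardiomyocytes, angII against ctrl had 14 genes called, against 473 with the count of detected genes as covariate, 245 with only the 2 groups compared, 37 after quantile normalization and 0 with no filter, and angII+VEGFC against ctrl had 104, against 769, 30, 326 and 0 in the same order and 0 to 852 with 1 library left out. For heart LECs, angII against ctrl had 7, against 0 to 31 with 1 library left out. In ctrl libraries only, heart LECs against heart BECs had 2246 in place of 5760 and against diaphragm LECs 293 in place of 1492. Without read counts, what depth limits could not be given.

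Blocking on the mouse, the paired comparisons gave 6, 4 and 9 members for heart LECs against heart BECs, heart against diaphragm LECs and cardiomyocytes against heart BECs, and Timp4 in heart against diaphragm LECs was the 1 call that changed.

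Small differences changed sign. Timp1 in heart LECs against heart BECs was 0.000437 with a pseudocount of 0.1, 0.48 in ctrl libraries only, 0.45 without the 3 heart BEC libraries with high fibroblast sums and -0.35 to 0.19 with 1 library left out. Timp1 in heart against diaphragm LECs was -0.40 to 0.12 and Mmp9 in heart LECs against heart BECs -0.024 to 0.22 with 1 library left out. In ctrl libraries only, Mmp2 in heart against diaphragm LECs was -0.011 and Mmp14 in cardiomyocytes against heart BECs -0.10.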
